A study of Rattus norvegicus with 82 samples.

Results

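The genes described here are 7 genes whose RNA marks particular cell groups of the hypothalamus: Pmch, Hcrt, Trh, Hdc, Ghrh, Sim1 and Cga. They were taken from the 14217 genes named by the platform annotation by those symbols, and each was measured by 1 probe set (1368802_at, 1387163_at, 1368912_at, 1370491_a_at, 1387217_a_at, 1382698_at and 1369659_at, in that order). The study measured total RNA from 7 regions of rat brain on 82 microarrays, of which 80 could be placed in a group. Each region was taken from rats labelled Sham, ADX or pADX at a time labelled AM or PM, with 2 arrays for most combinations. The hypothalamus had 12 arrays, numbered replicate 1 and 2 within each of the 6 combinations of treatment and time. ADX commonly stands for adrenalectomy, in which the adrenal glands are taken out, and Sham for the operation without that step. The sources used here do not spell out pADX, the strain, the age or the clock times. The labels do not say whether arrays came from separate animals or pools, so p-values measure the spread between these arrays, which may be technical.

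Pmch encodes the precursor of melanin-concentrating hormone and Hcrt that of the orexins (hypocretins). Both are made by neurons of the lateral hypothalamus, in separate cells that lie side by side, and act on feeding and wakefulness. Trh encodes the precursor of thyrotropin-releasing hormone, which drives the thyroid axis from the paraventricular nucleus, where Sim1 encodes a transcription factor needed for neuron development. Hdc encodes histidine decarboxylase, the enzyme that makes histamine in the tuberomammillary nucleus at the rear of the hypothalamus. Ghrh encodes growth hormone-releasing hormone of the arcuate nucleus. Cga encodes the alpha subunit shared by thyroid-stimulating hormone and the gonadotropins; it is a gene of the pituitary, including the pars tuberalis, the thin sheet of pituitary cells that lies against the median eminence. Since these cell groups lie in different places, the share of each in a piece of tissue depends on where it is cut; the labels give no account of the cutting.

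All signals below are log2 values after quantile normalization over the 82 arrays, with a floor of 4 (an intensity of 16), below which values have no order. The source name of the septum, dorsal raphe and locus coeruleus arrays reads frontal cortex. Their regions were taken from the rest of the title, and this reading was not tested with marker genes. The comparisons between regions rest on it. The source name of the hypothalamus arrays reads hippocampi, while the rest of the title and the description name the hypothalamus. Slc17a7, the vesicular glutamate transporter of cortex and hippocampus, was at the floor on 9 of the 12 arrays and reached 4.29, against 9.23 to 10.06 on the 10 hippocampus arrays. Neurod6, a transcription factor of the same neurons, lay at 4.81 to 5.78 against 10.33 to 10.93. Avp and Oxt, which encode vasopressin and oxytocin, lay at 10.61 to 11.74 and 9.87 to 11.63 on the hypothalamus arrays. Mean deposited intensity after trimming ran from 73.6 to 118 on these 12 arrays, and the GAPDH 3'/5' ratio, a check of RNA integrity, from 0.974 to 1.10. The same ratio for actin ran from 2.64 to 3.11 on the hypothalamus arrays. On the dorsal raphe arrays it was higher, at 3.12 to 6.03. The array ADX AM replicate 1 stood apart at the low end. Of 13304 probe sets with a mean of at least 6, 108 lay over 1 unit under the median of the other 11 arrays. Each other array had 4 to 32 such probe sets. Over 1 unit above that median lay 12, against 2 to 19 on each other array. The ADX vs Sham differences and the spreads of Ghrh, Cga and Hdc, and 5 pairs of genes, are given with and without ADX AM replicate 1.

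Across the 7 regions, 6 of the 7 genes had their highest mean in the hypothalamus by over 1 unit, a rule that 0.161% of the 31042 probe sets met (50, limma's moderated F test at an adjusted p of 0.05 plus the margin). The genes were chosen with that pattern known, so their levels are a description and nothing is read from the count. By margin over the next region Pmch ranked 1 of all probe sets, Cga 2, Hdc 6, Hcrt 7, Trh 8 and Ghrh 14; Sim1 ranked 104. Oxt and Avp, at 3 and 5, lay among them.

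Pmch had the widest margin. On the hypothalamus arrays it ran from 11.85 to 12.48 with a median of 12.20, and its mean of 12.19 ± 0.19 (SD, n = 12) was 5.34 above that of the amygdala, a 40.5-fold difference on this scale. Every hypothalamus array lay above every array of the other regions. In the amygdala Pmch ranged from 4.71 to 9.76 (SD 1.63), by far its widest spread in any region. Next came the locus coeruleus, where it held between 5.94 and 6.48 on 12 arrays. The septum (mean 4.91), dorsal raphe (5.08), frontal cortex (4.54) and hippocampus (4.61) followed close to the floor, with ranges that overlapped one another. Hcrt ran from 8.96 to 10.25 in the hypothalamus with a median of 9.32, and its mean of 9.40 ± 0.38 (SD, n = 12) was 3.42 above that of the locus coeruleus, a 10.7-fold difference. It lay at 5.10 to 6.79 in the locus coeruleus and 4.08 to 5.97 in the dorsal raphe. These ranges overlapped each other; the frontal cortex, at up to 4.68, lay below that of the locus coeruleus. The locus coeruleus and dorsal raphe are known targets of orexin fibres; whether the low signal there is Hcrt RNA was not tested.

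Trh ran from 7.82 to 8.60 in the hypothalamus (median 8.35; mean 8.30 ± 0.20, SD, n = 12). The dorsal raphe came next at 4 to 6.06, with 1 of 12 arrays at the floor. In the frontal cortex all 10 arrays were at the floor, and no array of the remaining regions passed 4.60. Its margin over the dorsal raphe was 3.27, at least 9.67-fold since 1 raphe array was at the floor. Cga ran from 4 to 10.84 (median 9.52; mean 9.20 ± 1.74, SD, n = 12), the widest range of the 7 genes, because 1 hypothalamus array was at the floor and the other 11 lay at 8.71 or above. Outside the hypothalamus its highest single value was 5.36, in the hippocampus. Between 6 and 9 arrays of each other region were at the floor for Cga. Its mean was 5.02 above that of the hippocampus with all 12 arrays and 5.49 above it without ADX AM replicate 1, the array at the floor; the floor acts on both regions, so no fold is given.

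Hdc ran from 7.70 to 8.48 in the hypothalamus (median 8.18; mean 8.13 ± 0.24, SD, n = 12) and Ghrh from 4.47 to 6.84 (median 6.43; mean 6.31 ± 0.64, SD, n = 12). The highest value of Hdc elsewhere was 5.54, in the dorsal raphe, and that of Ghrh 5.04, in the septum. The margin over the next region, the dorsal raphe for both, was at least 11.7-fold for Hdc and 3.98-fold for Ghrh. Hdc is also a gene of mast cells. Of 8 measured mast cell markers 5 were at the floor on all 12 hypothalamus arrays, among them the protease genes Tpsab1, Mcpt1 and Cma1 and the IgE receptor genes Fcer1a and Ms4a2. The other 3 were above it on some or all arrays: the tryptase gene Tpsb2 was at the floor on 2 arrays and reached 5.21, the carboxypeptidase gene Cpa3 was at the floor on 7 and reached 4.32, and the receptor gene Kit lay at 4.71 to 5.28 on all 12. The part of mast cells in the Hdc signal was not tested. Sim1 lay close to the floor, at 4.49 to 5.98 in the hypothalamus (median 5.09), and all arrays of the frontal cortex, septum, hippocampus, dorsal raphe and locus coeruleus were at the floor. In the amygdala 5 of 12 arrays were above it, up to 5.25, within the hypothalamic range. Its margin over the amygdala, 0.77, missed the rule of 1 unit, and with a lower floor of 8 in intensity it was 1.08 and met it.

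**Figure D1:**
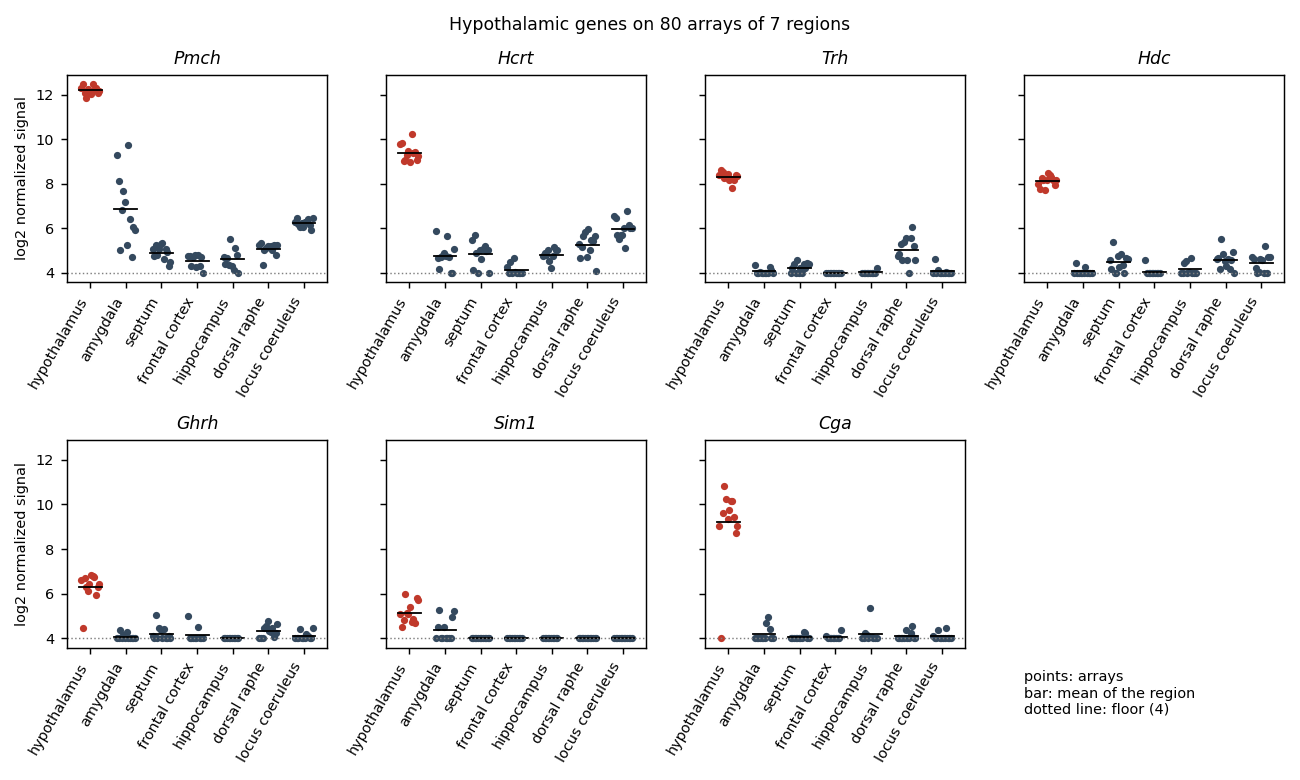
Signal of the 7 genes (log2, 1 point per array, bar at the region's mean) on 80 arrays of 7 regions, with the floor of 4 dotted. The hypothalamus arrays, in red, stand above the other regions for 6 genes except for 1 Cga array at the floor and 1 Ghrh array at 4.47, and the amygdala points of Pmch spread from 4.71 to 9.76.

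Upstream sequence was available for 6 of the 7 genes (RefSeq, GRCr8), and the 250 bases before the annotated start were searched on both strands for TATAAA (a core promoter element), TGTTCT (a half-site of the glucocorticoid receptor, through which adrenal steroids act), TGACGTCA (a cyclic AMP response element) and CACGTG (an E-box bound by clock factors). Of 33469 rat promoters of that length, 12.9% held TATAAA, 17.5% the half-site, 1.59% the cyclic AMP element and 5.59% the E-box. These 3 windows are shown for the gene whose signal moved with that of Pmch (Hcrt), for the gene with the widest range (Cga) and for the thyroid axis hormone that holds a receptor half-site (Trh). They are written 5' to 3' on the gene's strand with matches in capitals: Hcrt at chr10:86191525-86191774 (minus strand), Cga at chr5:54283090-54283339 (plus strand) and Trh at chr4:126301763-126302012 (minus strand).
Hcrt: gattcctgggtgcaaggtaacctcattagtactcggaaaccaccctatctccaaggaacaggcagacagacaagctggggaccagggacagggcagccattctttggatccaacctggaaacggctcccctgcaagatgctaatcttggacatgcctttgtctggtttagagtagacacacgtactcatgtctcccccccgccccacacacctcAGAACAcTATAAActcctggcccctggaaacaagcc
Cga: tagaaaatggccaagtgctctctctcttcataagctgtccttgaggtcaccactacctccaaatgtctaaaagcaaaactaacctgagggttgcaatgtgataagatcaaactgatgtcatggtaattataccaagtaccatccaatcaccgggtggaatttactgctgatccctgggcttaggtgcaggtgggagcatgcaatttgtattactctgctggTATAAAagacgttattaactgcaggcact
Trh: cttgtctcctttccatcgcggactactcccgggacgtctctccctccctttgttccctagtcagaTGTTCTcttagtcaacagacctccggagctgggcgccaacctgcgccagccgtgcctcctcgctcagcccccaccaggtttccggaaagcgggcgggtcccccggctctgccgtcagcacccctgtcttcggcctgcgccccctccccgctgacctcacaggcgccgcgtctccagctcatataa
Hcrt and Cga both held TATAAA at -29 to -24 from the annotated start, and in Hcrt AGAACA, the reverse complement of TGTTCT, lay just before it at -36 to -31. Trh held TGTTCT at -185 to -180 and Sim1 at -17 to -12. Hdc and Ghrh held none of the 4 motifs. These are matches of letters, not known sites.

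Against this regional pattern, treatment and time of day left no difference past the threshold in the 7 genes in the hypothalamus. Across 12 comparisons none of the 7 passed limma's test at a Benjamini-Hochberg adjusted p of 0.05 over all probe sets. Few probe sets passed at all: 0.0161% for ADX vs Sham (5, all lower in ADX), 0% for pADX vs Sham (with 1423 at an unadjusted p under 0.05), 0.00966% for ADX vs pADX and 0.00322% for PM vs AM. Within a treatment the share for PM vs AM was 0.058% in Sham, 0.058% in ADX and 0.0226% in pADX. For ADX vs Sham it was 0.0548% at AM and 0.0741% at PM. For the interactions with time it was 0.0644% (ADX vs Sham), 0.058% (pADX vs Sham) and 0.0387% (ADX vs pADX). At an unadjusted p under 0.05 the count of the 7 genes was 1 in PM vs AM within ADX (with 6.44% of all probe sets) and 1 in the interaction of ADX vs pADX with time (6.02%), Hcrt in both, and 0 in the other 10 comparisons. RNA was taken from whole tissue, so fewer cells of a type and less RNA per cell cannot be told apart in any of these values.

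Pmch lay at 12.32, 12.02, 11.85 and 12.32 in Sham (AM 1, AM 2, PM 1, PM 2), at 12.48, 12.47, 12.26 and 12.07 in ADX, and at 12.09, 12.23, 12.07 and 12.17 in pADX. The 2 ADX AM arrays were the highest of the 12, and the ADX PM arrays fell within the range of Sham. ADX minus Sham was 0.19 ± 0.12 (SE, n = 4 and 4; 95% interval -0.07 to 0.46), so a rise above 0.46 or a fall past 0.07 lay outside the interval. Hcrt lay at 9.77, 8.96, 9.06 and 9.41 in Sham, at 9.81, 10.25, 9.29 and 9.09 in ADX, and at 9.03, 9.36, 9.47 and 9.25 in pADX. The 2 ADX AM arrays were again the highest of the 12. They also had the lowest mean deposited intensities after trimming, 78.1 and 73.6. On the deposited values, without the quantile step, ADX minus Sham at AM was -0.12 for Pmch. The ranks given here hold for the quantile normalized values, and the part of array intensity in them was not tested. Within ADX both AM arrays were above both PM arrays, and their mean was higher by 0.85 ± 0.30 (SE, n = 2 and 2; limma adjusted p = 0.679). In Sham and pADX the AM and PM arrays overlapped. The difference of that time effect between ADX and pADX was 1.02 ± 0.42 in size (SE; limma adjusted p = 0.819), and between ADX and Sham 0.71 ± 0.42 (limma adjusted p = 0.99).

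Trh lay at 8.37, 8.16, 8.27 and 8.18 in Sham, 8.60, 8.22, 8.33 and 8.38 in ADX, and 8.52, 7.82, 8.43 and 8.36 in pADX. ADX minus Sham was 0.13 ± 0.15 (SE, n = 4 and 4; 95% interval -0.21 to 0.48). The ranges overlapped, and pADX AM replicate 2 was the lowest of the 12 arrays. Sim1 lay at 5.09, 5.39, 5.98 and 4.67 in Sham, 4.49, 4.73, 5.13 and 5.79 in ADX, and 4.80, 4.85, 5.10 and 5.72 in pADX. Both ADX PM arrays exceeded both ADX AM arrays, and the same held in pADX, while in Sham the PM arrays were the highest and the lowest of the 4. PM minus AM over all treatments was 0.51 ± 0.25 (SE, n = 6 and 6; 95% interval -0.07 to 1.08; limma adjusted p = 0.958).

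Hdc lay at 7.98, 8.48, 8.19 and 8.19 in Sham, 7.75, 8.38, 7.70 and 7.93 in ADX, and 8.27, 8.29, 8.17 and 8.17 in pADX. The 3 lowest of the 12 values were ADX arrays, but the remaining ADX array was the second highest of all. ADX minus Sham was -0.27 ± 0.15 (SE, n = 4 and 4; 95% interval -0.60 to 0.06; limma adjusted p = 0.843), and -0.17 ± 0.15 without ADX AM replicate 1. It was -0.41 ± 0.11 (limma adjusted p = 0.6) when its partner, ADX AM replicate 2, was left out. Over the 12 arrays left out in turn these were the nearest value to 0 and the farthest from it.

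Ghrh lay at 6.61 and 6.84 in Sham AM, 6.28 and 5.95 in Sham PM, 4.47 and 6.79 in ADX AM, 6.13 and 6.31 in ADX PM, 6.68 and 6.75 in pADX AM, and 6.42 and 6.44 in pADX PM. The value of 4.47 belonged to ADX AM replicate 1. The other 5 AM arrays, at 6.61 to 6.84, all lay above the 6 PM arrays, at 5.95 to 6.44. With all 12 arrays PM minus AM was -0.10 ± 0.37 (SE, n = 6 and 6; limma adjusted p = 1), and without ADX AM replicate 1 it was -0.48 ± 0.09 (SE, n = 6 and 5; limma adjusted p = 0.685). ADX minus Sham was -0.49 ± 0.45 (SE, n = 4 and 4) with that array and 0.07 ± 0.11 without it. Leaving out its partner, ADX AM replicate 2, made Ghrh pass in 4 comparisons, with ADX minus Sham at AM at -2.26 (limma adjusted p = 0.00297); the ADX AM group is then the single odd array.

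Cga lay at 9.04, 9.77, 10.84 and 9.43 in Sham (AM 1, AM 2, PM 1, PM 2), at 4, 10.18, 10.22 and 8.71 in ADX, and at 9.62, 10.14, 9.36 and 9.04 in pADX. Apart from the array at the floor, the ADX values lay within or just under the range of Sham. ADX minus Sham was -1.49 ± 1.23 (SE, n = 4 and 4; 95% interval -4.28 to 1.30), a difference cut short by the floor, and -0.04 ± 0.54 without that array.

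**Figure D2:**
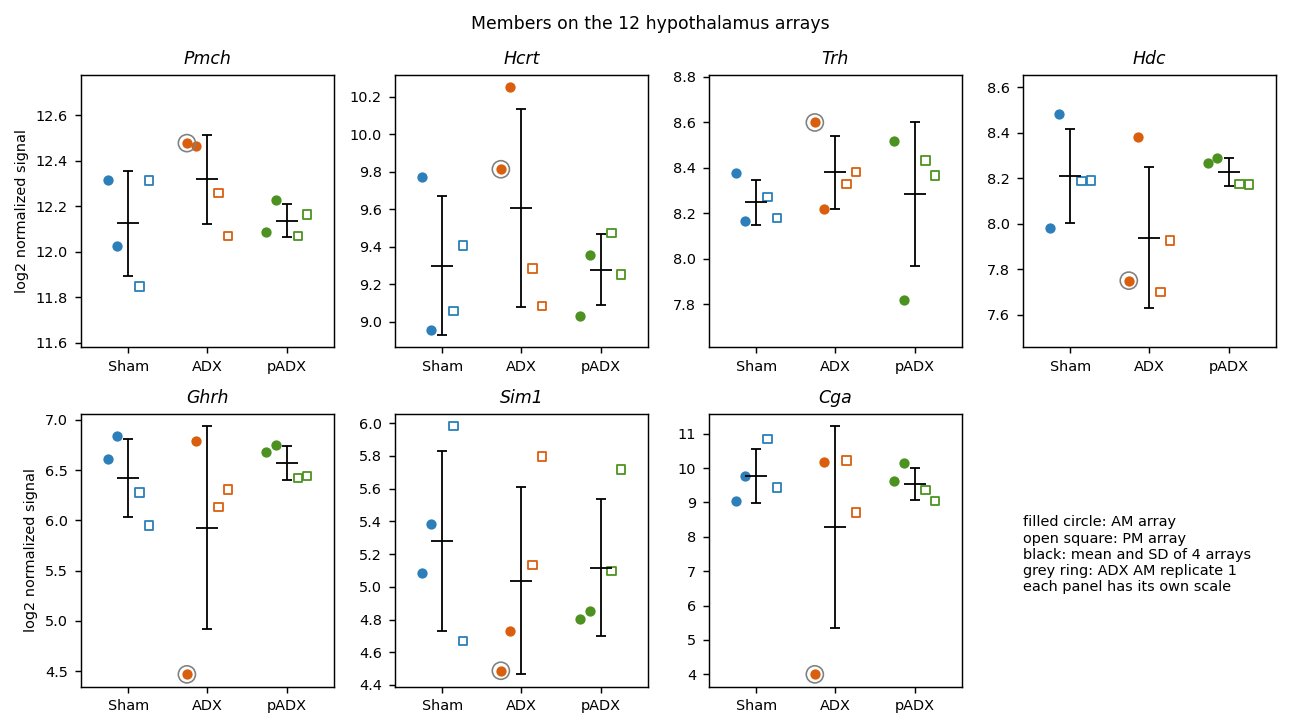
Signal of the 7 genes on the 12 hypothalamus arrays (log2, own scale per panel) by treatment, with AM arrays filled, PM arrays open and the mean ± SD of 4 arrays in black. The ringed array, ADX AM replicate 1, is lowest for Ghrh (4.47), Sim1 (4.49) and Cga (4, the floor) and highest for Pmch (12.48) and Trh (8.60).

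None of the other genes of these systems passed either. Of 141 symbols in 19 lists (receptors, processing enzymes and partner hormones of the 7 genes, markers of hypothalamic nuclei and of neighbouring tissue), 116 were measured, and 0 passed in the 4 comparisons over all arrays. At an unadjusted limma p under 0.05, 11 of 116 (9.48%) were counted for ADX vs Sham, 3 for pADX vs Sham, 14 for ADX vs pADX and 3 for PM vs AM. The shares of all probe sets at that p were 6.42%, 4.58%, 7.99% and 4.73%. The smallest adjusted p for ADX vs Sham was that of Pdyn (0.18), the dynorphin precursor gene that orexin neurons also express, with a difference of -0.47. It lay at 8.47, 8.60, 8.55 and 8.33 in ADX, under all 4 Sham arrays (8.88 to 9.02). Of 9 measured genes of the Pmch and Hcrt systems the median difference was 0.00 for ADX vs Sham, beside 0 over all probe sets. Hcrtr1 and Hcrtr2, the orexin receptors, differed by 0.35 and -0.10. Of the 10 measured genes around Trh the median was -0.01, with its receptor Trhr at 0.24. The 8 measured genes around histamine had a median of -0.04 and the 8 around Ghrh one of 0.16, with Sst, the somatostatin gene that opposes it, at 0.24. Crh, the releasing hormone gene under adrenal feedback, differed by 1.03 (limma adjusted p = 0.498). It lay at 6.95, 5.62, 6.51 and 6.22 in ADX, all above the 4 Sham arrays (5.02 to 5.50) and the 4 pADX arrays (4.89 to 5.40), with ADX AM replicate 1 the highest of the 12.

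Among the 12 hypothalamus arrays, Pmch and Hcrt moved together. Pearson's r was 0.83 (permutation p = 0.00062, adjusted over 21 pairs 0.013) and Spearman's rho 0.81 (permutation p = 0.00202, adjusted 0.0283). Without the 2 arrays farthest from the median of Pmch r was 0.85, and without ADX AM replicate 1 it was 0.81. In deviations from the 6 means of treatment and time r was 0.70, so the relation was also seen between replicates of one group. Such deviations mirror each other within a pair of replicates, so they are a description and no p-value is given for them. The pair missed the threshold without ADX AM replicate 2 (r = 0.80, adjusted permutation p = 0.055), and passed without each of the other 11 arrays. Pmch and Sim1 ran in opposite directions, with r = -0.77 (permutation p = 0.0033, adjusted 0.0346) and rho = -0.80 (permutation p = 0.0027, adjusted 0.0283). Without the 2 farthest arrays it was -0.56, so that relation rests in part on them, and without ADX AM replicate 1 it was -0.71 (adjusted 0.131). It missed the threshold as well without Sham PM replicate 1 (r = -0.67, adjusted 0.141), Sham AM replicate 2 (0.0583), ADX AM replicate 2 (0.0674), pADX AM replicate 2 (0.059) or ADX PM replicate 2 (0.052). All 7 genes are read on the same arrays, so a shared shift of an array enters every pair.

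Hdc and Ghrh, of the tuberomammillary and arcuate nuclei, had r = 0.68 (permutation p = 0.00819, adjusted 0.0573) and rho = 0.74 (permutation p = 0.0074, adjusted 0.0518). Without the 2 arrays farthest from the median of Hdc r was 0.53, and without ADX AM replicate 1 it was 0.62 (adjusted permutation p = 0.275). In deviations from the group means r was 0.82. The pair passed without Sham AM replicate 1 (adjusted permutation p = 0.0395), ADX PM replicate 1 (0.0293) or Sham PM replicate 2 (0.0262). ADX AM replicate 1 enters each of these. Hdc and Cga had r = 0.53 (adjusted permutation p = 0.237), 0.21 without ADX AM replicate 1 and 0.77 without ADX PM replicate 1 (adjusted 0.0293), the 1 omission of a single array with which that pair passed. Ghrh and Cga had r = 0.86, but rho was 0.27 and r was 0.07 without ADX AM replicate 1, so that relation rests on 1 array. With that array in, r in deviations from the group means was 0.95. Hcrt and Sim1 had r = -0.59 (permutation p = 0.0428, adjusted 0.18). Trh ran with none of the other 6 past the threshold, with r from -0.56 to 0.07. In all, 2 of 21 pairs passed, and 4 of 21 (19.0%) reached an r of 0.6 in size, against 5.81% of all pairs among 13298 probe sets with a mean of at least 6 and no array at the floor. The genes were chosen with earlier results in view, and nothing is read from that contrast.

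**Figure D3:**
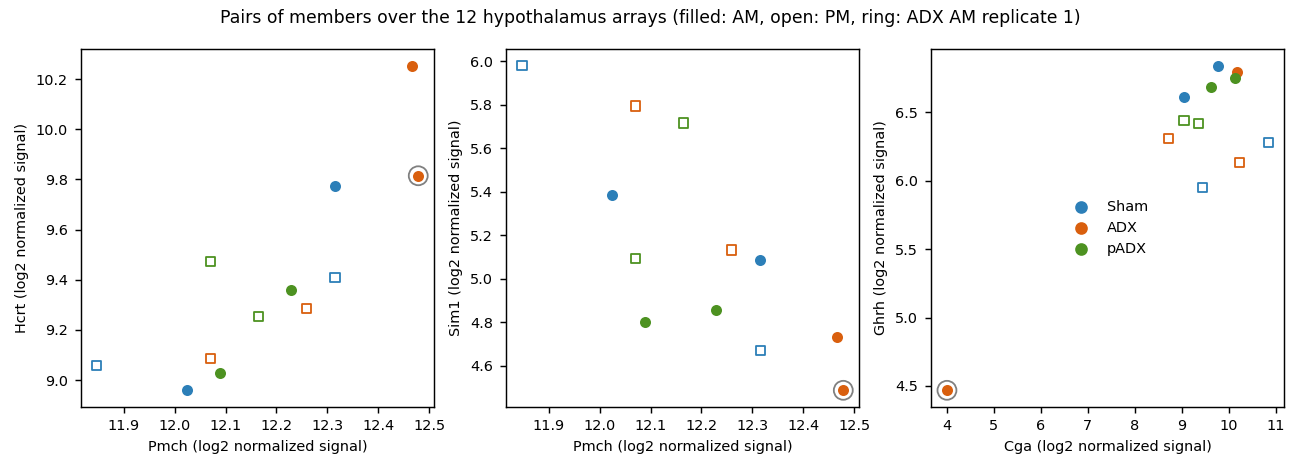
Pairs of genes over the 12 hypothalamus arrays (log2 signal on both axes, 1 point per array, coloured by treatment, AM filled, PM open). Hcrt climbs with Pmch (r = 0.83) and Sim1 falls (r = -0.77), while Ghrh against Cga (r = 0.86) is a cloud plus the ringed array ADX AM replicate 1.

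How far a gene moved between arrays differed widely within the set. Over the 12 arrays the SD of Pmch (0.19) and Trh (0.20) lay near the median of the 13298 probe sets, 0.16, with 60.9% and 67.1% of them smaller. Hdc came next (SD 0.24, 81.1%), then Hcrt (0.38, 96.9%), Sim1 (0.48, 98.6%), Ghrh (0.64, 99.6%) and Cga (1.74, 100%). The 13298 probe sets have a mean of at least 6 and no array at the floor. Sim1 (mean 5.14) and Cga (1 array at the floor) are not among them. The spread of Sim1 was not set against that of probe sets as dim as it is. Without ADX AM replicate 1 the SD of Ghrh was 0.29 (90.9%) and that of Cga 0.63 (99.6%), so both spreads rested largely on that array; Hdc was then at 0.22 (75.5%). Pmch and Hcrt, which moved together, had unlike spreads, that of Hcrt the wider. The array measures moved with them only in part: correlations of the 7 genes with mean intensity and the 3' to 5' ratios of GAPDH and actin lay between -0.49 and 0.55 over the 12 arrays. Their part in the pairs was not tested.

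The named genes most like each of the 7 over the 12 arrays were found by Pearson's r among 8177 well-measured probe sets with a symbol. For Pmch they were Ndufa4 (r = 0.96), Ns5atp4 (0.95) and Dynlrb1 (0.92), and for Hcrt Usp8 (0.93), Ns5atp4 (0.93) and Gpx4 (0.91). Ns5atp4 stood in both lists, with and without ADX AM replicate 1. The SDs of these genes ran from 0.06 (Dynlrb1) to 0.16 (Usp8), the latter close to the median of 0.16 over 13298 probe sets. For Trh the closest was Prxl2b (0.89), for Hdc Tmem59 (0.90) and for Sim1 Mllt10 (0.89). For Ghrh they were led by Abhd14b (0.92) and for Cga by Ces1d (0.95), but without ADX AM replicate 1 none of the first 3 stayed, and Lrrc23 (0.90) and Dkk3 (0.89) led. Of the marker lists, Aqp4 and Gja1, the water channel and gap junction genes of astrocytes, ran opposite to Pmch (r = -0.84 and -0.80; -0.79 and -0.74 without that array). The other 4 measured astrocyte genes did not share this: Gfap had r = -0.55, Slc1a3 -0.36, Slc1a2 0.02 and Aldh1l1 0.47.

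On ADX AM replicate 1 the 7 genes differed in direction. Against the median of the other 11 arrays, Cga was lower by 5.62 (a lower bound, since it was at the floor) and Ghrh was at -1.97, Sim1 at -0.61 and Hdc at -0.44, while Hcrt was at 0.53, Pmch at 0.31 and Trh at 0.27. Among 13304 probe sets with a mean of at least 6, this array was the lowest for 10.4% and the highest for 11.9%. Of 4 measured median eminence and tanycyte markers it was the lowest of the 12 arrays for 3, with a median difference of -1.10. Crym was at -1.88, Ppp1r1b at -1.16 and Vim, the intermediate filament gene of tanycytes and vessels, at -1.04. Rax, the remaining marker of that list, did not share a drop of this size. Npy, the arcuate feeding peptide gene, was at -1.46, whereas Slc6a3 and Th, genes of dopamine neurons on the arcuate list, were at 1.28 and 0.77. Crh was at 1.55 and Oxt at 0.78. The paraventricular and supraoptic list was not high as a whole: its 7 measured genes had a median of 0.10, with Avp at -0.02. Npy lay at 8.77 to 8.92 on the other 3 ADX arrays, also under the 4 Sham arrays (9.05 to 9.11). The arcuate list was not low as a whole: its 9 measured genes had a median of 0.26, and Npy alone of them was the lowest of the 12 arrays. Blood genes were low on this array, with Hbb at -1.88 and Alas2 at -1.82, and low on the other ADX arrays too. Hbb, a globin gene of red cells, lay at 9.99, 10.77, 11.43 and 10.63 in ADX against 11.87 to 12.71 in Sham and 11.72 to 12.48 in pADX (ADX minus Sham -1.58, limma adjusted p = 0.291), and Alas2 differed by -1.94 (limma adjusted p = 0.291). Oligodendrocyte and thalamus lists stayed near 0 (medians of -0.00 and -0.02). The ventromedial list had a median of -0.53, with this array the lowest of the 12 for 2 of its 3 measured genes. For the astrocyte list the median was -0.24, with this array the lowest for 2 of 6 genes. The part of the tissue taken in these values was not tested.

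The pituitary markers give a second view of Cga. Tshb, the partner of Cga in thyroid-stimulating hormone, reached 8.54 on Sham PM replicate 1 and 6.99 on ADX PM replicate 1, the 2 arrays with the highest Cga (10.84 and 10.22), and lay between 4 and 5.89 on the other 10. Prl, Pomc, Pou1f1 and Gnrhr, genes of the hormone cells of the anterior lobe, were at the floor on all 12 arrays, and Gh1 and Pitx1 were at the floor on 8. Lhb and Fshb, the partners of Cga in the gonadotropins, were above it on all 12, at 5.02 to 6.05 and 4.40 to 5.35, with means that differed from those of the locus coeruleus by 0.02 and -0.07. The probe set of Pomc was at the floor although arcuate neurons express that gene, so that probe set does not separate these tissues.

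**Figure D4:**
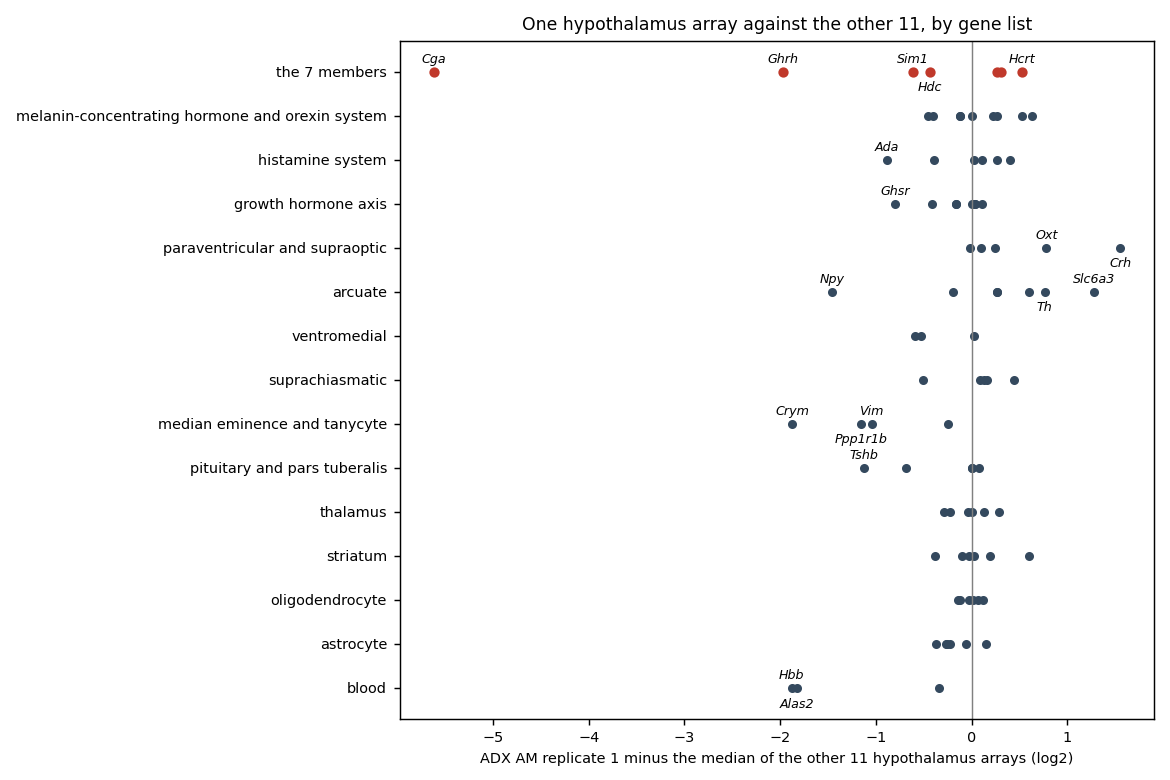
Difference of ADX AM replicate 1 from the median of the other 11 hypothalamus arrays (log2) for the 7 genes, in red, and for the measured genes of 14 lists. Cga (-5.62), Ghrh (-1.97), Npy, Crym and the blood genes lie far to the left, and Crh, Slc6a3, Oxt and Th to the right.

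Outside the hypothalamus, Pmch in the amygdala varied more, with an SD of 1.63, than any of the 7 genes in the other 5 regions. It lay at 9.28, 5.25, 6.84 and 4.71 in Sham (AM 1, AM 2, PM 1, PM 2), at 8.15, 9.76, 7.70 and 6.06 in ADX, and at 5.02, 6.41, 7.16 and 5.92 in pADX. The 3 highest arrays were ADX AM replicate 2, Sham AM replicate 1 and ADX AM replicate 1, and the 2 replicates of Sham AM (9.28 and 5.25) differed by more than the 4 ADX arrays did. Hcrt was highest on Sham AM replicate 1 (5.88) and ADX AM replicate 2 (5.64), the same 2 arrays that led Pmch. Over the 12 amygdala arrays the r of Pmch with Hcrt was 0.80 (permutation p = 0.00172, adjusted over 8 relations 0.00912; rho = 0.62), and 0.51 without the 2 farthest arrays, so it rests in part on them. With the mean of 6 oligodendrocyte genes it was 0.79 (permutation p = 0.00228, adjusted 0.00912; rho = 0.73), and 0.59 without the 2 farthest. With the thalamus and striatum lists it was 0.02 and 0.44. Avp and Oxt ranged from 5.54 to 10.07 and 4.46 to 8.26 on the same arrays, with r of 0.59 and 0.55 to Pmch. Nkx2-1, Gal and Crh, also genes of the hypothalamic lists, had lower r of 0.47, 0.35 and 0.13. The r of these single genes were not tested. Fibre tracts and the lateral hypothalamus border the amygdala; the part of tissue shares in the spread of Pmch was not tested. In the locus coeruleus, where Pmch spanned 5.94 to 6.48, its r with Hcrt was 0.43 (permutation p = 0.161, adjusted 0.212) and that with the oligodendrocyte mean -0.44 (permutation p = 0.148, adjusted 0.212), of the other sign than in the amygdala.

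**Figure D5:**
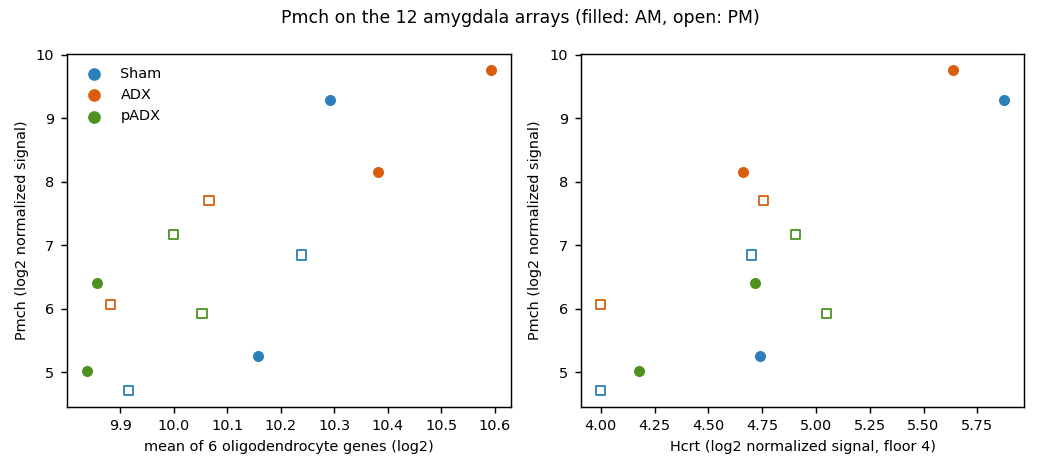
Pmch on the 12 amygdala arrays (log2) against the mean of 6 oligodendrocyte genes and against Hcrt, 1 point per array, coloured by treatment, AM filled and PM open. Pmch runs from 4.71 to 9.76 and is higher where the oligodendrocyte mean is higher (r = 0.79); 2 arrays have Hcrt at the floor of 4.

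In the 6 other regions none of the 7 genes passed in 168 tests of treatment and time (limma, adjusted over all probe sets of each region), where 0.00644% of all tests passed. At an unadjusted p under 0.05 were 6 of the 168 (3.57%), against 7.24% of the tests over all probe sets. Sim1 was at the floor on every array of the frontal cortex, septum, hippocampus, dorsal raphe and locus coeruleus, and Trh on every frontal cortex array. Those tests could not pass. Hdc, Ghrh and Cga had arrays at the floor in each of the 6 regions, so nothing is read from these shares. The smallest limma p was that of Hdc in the dorsal raphe, where pADX minus Sham was -0.54 ± 0.21 (SE, n = 4 and 4; adjusted p = 0.868), at signals between the floor and 5.54. Pmch in the dorsal raphe differed between ADX and Sham by -0.06 ± 0.20 (SE, n = 4 and 4).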

How the data were processed

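Total RNA of rat brain was hybridised to 82 one-colour arrays of 31099 probe sets. The deposited table holds 1 linear intensity per probe set and array; the sources used here name neither software nor scaling, and mean intensity differed between arrays, which quantile normalization removes together with any true shift of most genes. All 82 arrays were brought to one distribution by quantile normalization. Intensities under 16 (27.5% of values) were raised to 16, and log2 was taken. After leaving out 57 control probe sets, 31042 were tested without a filter. In the platform annotation 20826 had 1 symbol, 436 several and 9780 none; 20758 were matched to RefSeq genes of GRCr8. Groups came from titles and descriptions; 2 frontal cortex arrays with no stated treatment entered no comparison.

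Under R 4.3.3, limma 3.58.1 (lmFit and a trended eBayes) fitted treatment plus time, or the 6 means where a single treatment, a single time or an interaction was tested, with Benjamini-Hochberg adjustment at 0.05. Regions were compared over 80 arrays with the 12 combinations of treatment, time and replicate as blocks. Correlations used 100000 permutations, adjusted over 21 pairs (Python 3.11.15, scipy 1.17.1). The scripts were tested on simulated data. Every member is described; the 3 genes most like each member were ranked, list genes are named where they passed or define a cell group, and the other list genes named were chosen after their values were seen. The members, lists and some tests were chosen with earlier results of these data known. Alternatives were the deposited values, trimmed mean scaling, quantile normalization of the hypothalamus alone, floors of 8 and 32, a filter on dim probe sets, no trend, a replicate block, 6 means and leaving out each array. The number of arrays limits the precision.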

Additional observations from a re-analysis of the deposited data

Results flagged for a closer look

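Groups with no value at the floor held 4 arrays of 1 gene, region and treatment, save Hcrt in the hippocampus, taken over its 10 arrays. Of these 48 groups, 1 held an array far from the others: Trh in the dorsal raphe Sham group. Its highest array, Sham PM replicate 2, lay at 6.06, and the next at 4.75. About 1 in 20 such groups is picked out by chance.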

How the results depend on the processing

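Of 1708 values of the 7 genes in the 12 hypothalamus comparisons under the alternatives, 101 had another sign than reported, and none of the 7 passed in any of them except Ghrh without ADX AM replicate 2. On the deposited values, without the quantile step, the median of 13304 probe sets moved to -0.32 for ADX vs Sham and to -0.52 at AM, where 5980 probe sets passed, 5979 of them lower, against 17 (9 lower). There Pmch turned to -0.13 for ADX vs Sham, -0.12 at AM and -0.00095 for ADX vs pADX, Hcrt to -0.014 for ADX vs Sham, and Hdc to 0.013 for PM vs AM within ADX; relative to the shifted median Pmch and Hcrt stayed above it. On those values r turned to 0.16 for Pmch and Hdc, 0.21 for Trh and Hdc and 0.069 for Trh and Ghrh, Pmch and Sim1 fell to -0.36, and 1 test outside the hypothalamus passed (Pmch in the dorsal raphe, -0.69 for ADX vs Sham, limma adjusted p = 0.0408), where the deposited scale differs between treatments.

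With a floor of 32, 1 pair passed in place of 2; in deviations from the group means r of Hcrt and Cga was 0.30. Leaving out single arrays, the pairs that passed ranged from 0 (without ADX AM replicate 2) to 4 (without ADX PM replicate 1), with 1 each without ADX AM replicate 1, Sham PM replicate 1, Sham AM replicate 2, pADX AM replicate 2 or ADX PM replicate 2. The members past the threshold ranged from 0 to 1 for PM vs AM within ADX, ADX vs Sham at AM and the interactions of ADX vs Sham and of ADX vs pADX with time, the 1 being Ghrh. Over the same omissions, ADX vs Sham ranged from -0.80 to 0.072 for Ghrh, at AM from -2.26 to 0.068 for Ghrh and from -5.40 to 0.77 for Cga, and ADX vs pADX from -2.12 to 0.19 for Cga. PM vs AM within ADX ranged from -0.57 to 0.063 for Hdc and from -0.71 to 5.47 for Cga, its interaction with ADX vs pADX from -0.031 to 6.15 for Cga, and PM vs AM within pADX from -0.12 to 0.58 for Trh. Correlations ranged from -0.60 to 0.078 (Pmch and Ghrh), -0.62 to 0.023 (Hcrt and Cga), -0.18 to 0.41 (Ghrh and Sim1) and -0.051 to 0.47 (Sim1 and Cga). Apart from the omitted arrays themselves, causes were not tested.

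Probe sets past the threshold ranged over the alternatives from 1 to 244 for ADX vs Sham (5 reported) and 0 to 19 for pADX vs Sham (0). They ranged from 0 to 18 for ADX vs pADX (3), 0 to 17 for PM vs AM (1) and 7 to 5980 for ADX vs Sham at AM (17). The remaining comparisons had 7 to 23 reported. Their alternatives include fits with 1 array left in a group, so no range is given. With a margin of 2 units, 5 of the 7 genes were highest in the hypothalamus, without Ghrh (1.99). Of all 31042 probe sets, the one ranked 13 by margin lay at 2.05, and Ghrh ranked 14. The genes were chosen with that pattern known, so nothing is read from the count. Replicate numbers did not pair the arrays: deviations of same-numbered arrays correlated between -0.13 and 0.07 over 15 pairs. With the replicate block none of the 7 genes passed (0 in each comparison). Each gene had 1 probe set, so the alternative of another probe set was not run. A dim gene such as Sim1, close to the floor, is limited by signal over background.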
